A study of Ovis aries with 20 samples.

Results

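The genes described here are those of the unfolded protein response of the endoplasmic reticulum (ER) and of the heat shock response. These 40 genes were chosen by name for their known roles, with earlier results of these data known. The gene table held 39 of them among its 28524 genes, and HSPE1, a partner of the mitochondrial chaperone HSPD1, was not analysed here. They fall into 11 chaperones and cofactors of the ER, 4 protein disulfide isomerases, 6 sensors and transcription factors, 3 targets of ATF4 and DDIT3, 3 genes of ER-associated degradation, 10 genes of the cytosolic heat shock system and 2 mitochondrial chaperones.

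Proteins bound for secretion or for membranes fold in the ER with the help of chaperones. When unfolded chains build up there, the sensors ATF6, ERN1 (IRE1) and EIF2AK3 (PERK) are released from HSPA5 and raise chaperone genes, splice the mRNA of XBP1, and slow translation while favouring ATF4, which acts upstream of DDIT3 (CHOP). In the cytosol the factor HSF1 does the corresponding work, raising heat shock proteins that hold, refold or hand over damaged proteins. Ovarian follicle cells secrete hormones and matrix, and ER stress has been studied in granulosa cells in the context of ovulation and polycystic ovary syndrome. Gene counts as used here do not separate the spliced from the unspliced XBP1 mRNA, and they say nothing of protein levels or of kinase activity.

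RNA was sequenced from granulosa cells, the inner layer of the ovarian follicle, and from theca cells, the layer around it, of adult female sheep. Their mothers had been injected intramuscularly with 100 mg testosterone propionate (1.2 mg/kg), 2 times a week from gestation day 30 to 90, which gave the prenatal T animals (209, 210, 230, 276 and 315), or with vehicle, which gave the controls (139, 224, 244, 246 and 268). All animals, controls included, were given 10 mg prostaglandin F2 alpha 2 times, 11 days apart, and their ovaries were removed at 21 months of age, 18 h after the second injection. Cells were laser-microdissected from 14 µm cryosections, and several antral follicles of an animal were pooled by layer, so a library is a mean over follicles. There were 4 control and 5 prenatal T granulosa libraries and 5 control and 5 prenatal T theca libraries; granulosa cells of control sheep 139 were not analysed here. The comparison of treatments asks what prenatal testosterone excess leaves in the adult follicle, and that of the layers which genes separate its cell types.

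Libraries held 12.7 to 26.03 M assigned reads, with 19.8 ± 5.25 M in control granulosa (SD, n = 4) and 14.2 ± 1.38 to 15.9 ± 1.48 M in the other groups (n = 5 each). Summed levels of 13 granulosa markers were 59610.3 to 206016 in granulosa libraries and 19362 to 42689 in theca libraries, sheep 209 left out. Those of 13 theca markers were 21668 to 86104 and 609411 to 899107. Prenatal T sheep 209 stood apart, and its markers went against its labels in granulosa and in part in theca. Its library labelled granulosa held granulosa markers at 24167.5, with FSHR, AMH and CYP19 at 0, and theca markers at 28517. Of that granulosa sum 23197.5 was SERPINE2, which lay within the other granulosa libraries. All other granulosa markers of the list lay below every other granulosa library, such as INHA at 8.05 against at least 7238. The library of sheep 209 labelled theca held theca markers at 391087, below the other theca libraries and above every granulosa library. Within the range of the other theca libraries were DCN at 22083, LUM at 9640.2 and PDGFRA at 10971. All other theca markers of the list lay below every other theca library. COL1A1 was at 127254 against at least 250557, and NR2F2 at 3982 against at least 6705. COL1A2, COL3A1, OGN, GLI1, PTCH1 and TCF21 were likewise below. In the same library of sheep 209 CYP17A1 was at 0 and INSL3 at 1.27, where the other theca libraries held at least 3546 of INSL3. Summed epithelial markers were 90809.8 and 22113 in its granulosa and theca libraries, against at most 4012 in any other. Several results are therefore also given without sheep 209. Where this is not stated, values include it.

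Levels below are the authors' normalized counts, in which each library's gene counts were divided by a size factor. They are not corrected for gene length, so they are compared between samples and not between genes. Where all values of a group are listed, they follow the order of sheep 224, 244, 246 and 268 for control granulosa, 139, 224, 244, 246 and 268 for control theca, and 209, 210, 230, 276 and 315 for both prenatal T groups. Changes are differences of log2(normalized count + 1) with the standard error of a limma fit, adjusted p-values are Benjamini-Hochberg values over all 16269 genes tested, and a gene is called at an adjusted p under 0.05. All 39 genes passed the filter of at least 10 in at least 5 libraries. The p-values between treatments within a layer measure the spread between animals. Those that compare the layers measure how layer differences within an animal vary between animals. In pooled tissue fewer cells of a type and less RNA per cell cannot be told apart.

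Of the 11 ER chaperones and cofactors 9, and all 4 disulfide isomerases, were higher in granulosa than in theca cells of the same animals. Of the 39 genes, 27 differed between the layers, 24 higher and 3 lower in granulosa, where 56.6% of all genes tested were called, 28.6% higher and 28.0% lower. The median difference of the 39 genes was 0.34, against 0.025 over all genes. In 14 of the 39 genes (35.9%) granulosa was higher in all 9 sheep with both layers, as it was for 15.8% of all genes. Without sheep 209 there were 27 genes higher and 3 lower, where 31.4% of all genes were called higher; ATF4, DNAJC3 and HSP90AB1 were the added ones.

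**Figure D1:**
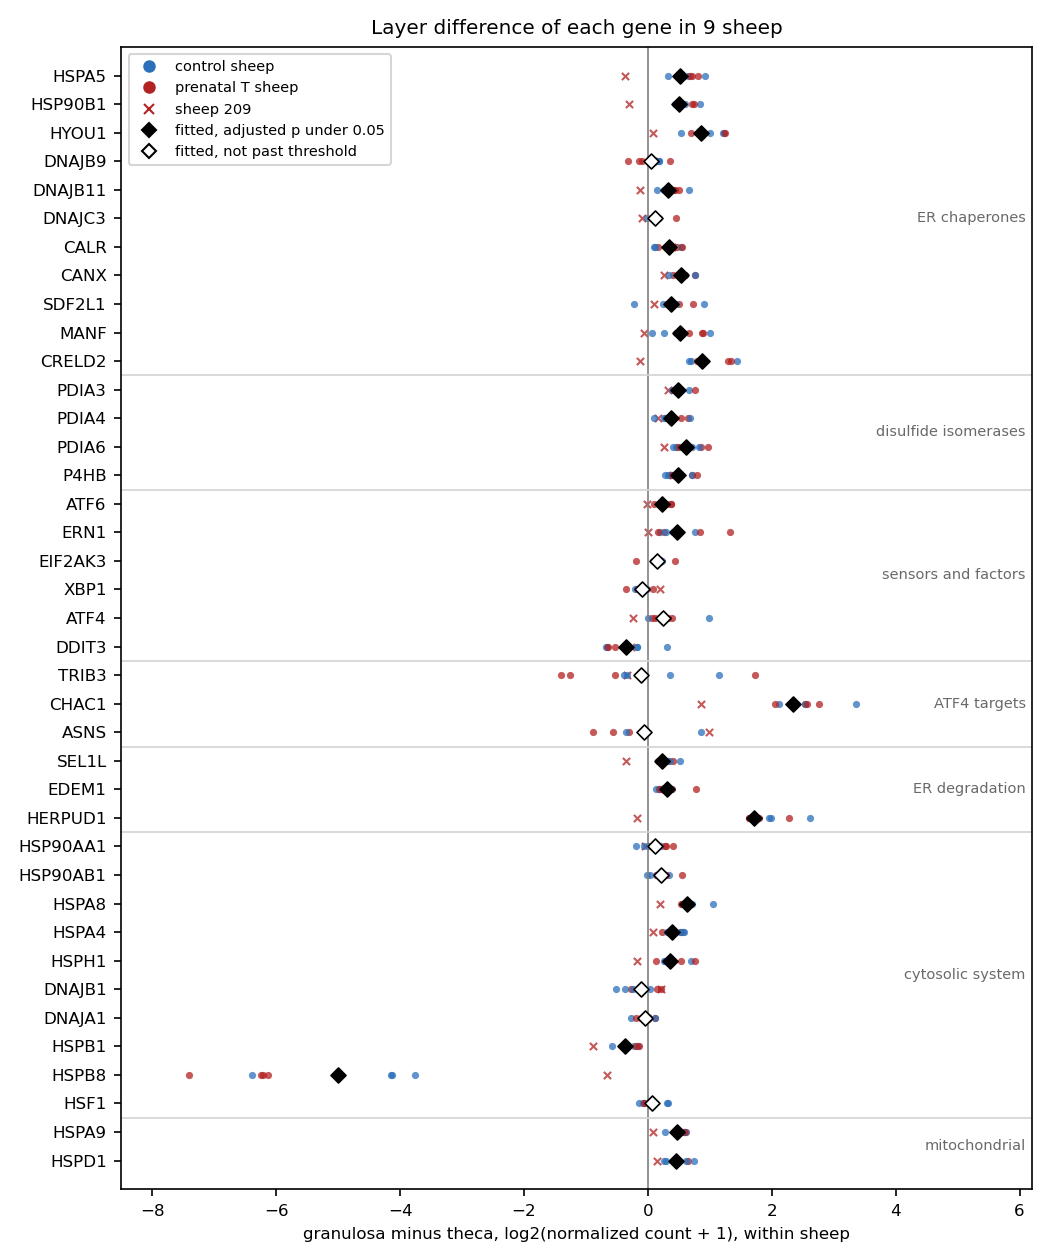
Difference between granulosa and theca, in log2(normalized count + 1), for each of the 39 genes (vertical axis, by role). Points are single sheep (blue control, red prenatal T, cross sheep 209), diamonds the fitted difference, filled where the adjusted p was under 0.05; most filled diamonds lie to the right of 0, HSPB8 lies far to the left, and CHAC1 and HERPUD1 lie farthest to the right.

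Among the 11 ER chaperones and cofactors, 9 were higher in granulosa and 2, DNAJB9 and DNAJC3, did not pass. HSPA5 (BiP), the ER Hsp70 that binds unfolded chains and keeps the sensors at rest, stood at 11837, 10478, 8021 and 14533.5 in control granulosa and 21897, 10804, 14815, 17623 and 14403 in prenatal T granulosa. In theca it stood at 6870.1, 8371, 5543, 6424 and 9278 in controls and 28438.5, 7836, 9014, 11002 and 8244 in prenatal T animals. Each animal with both layers was higher in granulosa except sheep 209, whose theca library held the highest value of all 19. The difference was 0.52 ± 0.12 (adjusted p = 0.00263) and 0.63 ± 0.07 without sheep 209.

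CANX, a membrane lectin that holds newly made glycoproteins, gave 11749.6, 11924, 11398 and 13631 in control and 13026, 11471, 13718, 15970.1 and 13886 in prenatal T granulosa. Its theca values were 8085, 9228, 7058, 7764 and 8979.7 in controls and 10894, 8624, 8065, 10771 and 9208 in prenatal T animals. No theca library reached the lowest granulosa value of 11398. The difference was 0.54 ± 0.07 (adjusted p = 3.74e-05), with granulosa higher in 9 of 9 sheep.

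The largest differences in this group were those of CRELD2, a stress-inducible ER protein (0.87 ± 0.14, adjusted p = 0.000282), and HYOU1, the nucleotide exchange factor of HSPA5 (0.86 ± 0.11, adjusted p = 7.42e-05). HYOU1 had a lowest, median and highest level of 3968, 5697 and 6798 in the 9 granulosa libraries and 2073, 3176 and 6211 in the theca libraries of the same sheep. The ranges overlapped through sheep 209, which had 6211 in theca; the other theca libraries ended at 3706, below every granulosa library. CRELD2 likewise averaged 1430.4 ± 333 in granulosa and 846 ± 489 in theca (SD, n = 9). Without sheep 209 its theca mean was 693 ± 178 (n = 8).

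HSP90B1, the ER form of Hsp90, averaged 26457 ± 3055 in control and 32932 ± 4184 in prenatal T granulosa, and 17381 ± 2279 in control and 25747 ± 11270.5 in prenatal T theca (SD, n = 4, 5, 5 and 5, as in all such lists below). The highest theca group is that with sheep 209, without which prenatal T theca averaged 20771 ± 2062 (n = 4). HSP90B1 differed by 0.50 ± 0.11, and MANF, a small secreted protein that binds HSPA5, by 0.52 ± 0.11. SDF2L1 averaged 256 ± 29.6 in control and 398 ± 249 in prenatal T granulosa, and 208 ± 76.9 in control and 325 ± 261 in prenatal T theca. DNAJB11 averaged 825 ± 151 in control and 1126 ± 392 in prenatal T granulosa, and 655 ± 138 in control and 963 ± 566 in prenatal T theca. Both prenatal T means include sheep 209. It held 838 and 784 of SDF2L1, where the others held at most 332 in granulosa and 323 in theca. For DNAJB11 it held 1803 and 1960, where the others held at most 1081 and 855. SDF2L1 and DNAJB11, whose products work together as a cofactor of HSPA5, differed between the layers by 0.38 ± 0.11 and 0.33 ± 0.07. CALR, the soluble relative of CANX, differed by 0.34 ± 0.06 and was higher in granulosa in 9 of 9 sheep. DNAJB9, a J-domain partner of HSPA5, averaged 435 ± 256 in granulosa and 418 ± 237 in theca and differed by 0.05 ± 0.08 (adjusted p = 0.620). DNAJC3 averaged 1405 ± 112 in control and 2284 ± 1506 in prenatal T granulosa, and 1320.3 ± 60.7 in control and 2177 ± 1724 in prenatal T theca, and without sheep 209 1620.3 ± 286 in prenatal T granulosa and 1408 ± 129.6 in prenatal T theca. This ER co-chaperone, also known as an inhibitor of EIF2AK3, differed between the layers by 0.11 ± 0.06 (adjusted p = 0.101), and by 0.14 ± 0.05 without sheep 209 (adjusted p = 0.0410, and 0.0174 to 0.765 over all alternatives).

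All 4 disulfide isomerases were higher in granulosa, in 9 of 9 sheep each. PDIA3 (ERp57), which forms disulfide bonds in glycoproteins held by CALR and CANX, stood at 9059, 8816, 10013 and 10745.5 in control and 15539, 9828, 11088, 11577 and 14429 in prenatal T granulosa. In theca it stood at 7005.5, 6917, 5587, 7162 and 7691 in controls and 12476, 7367, 7845, 8643 and 8521 in prenatal T animals. Apart from sheep 209 every theca library lay below every granulosa library. PDIA3 differed by 0.49 ± 0.06 (adjusted p = 2.88e-05), PDIA6 by 0.61 ± 0.08, P4HB, the founding member of the family, by 0.48 ± 0.07, and PDIA4 by 0.37 ± 0.07.

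PDIA6 averaged 7880.4 ± 1005 in control and 9218 ± 881 in prenatal T granulosa, and 5099 ± 596 in control and 6067 ± 961 in prenatal T theca. PDIA4 averaged 6139.6 ± 1088 in control and 7536 ± 1551 in prenatal T granulosa, and 4850.3 ± 935 in control and 5796 ± 1871 in prenatal T theca. Sheep 209 held 10026 and 8914 of PDIA4, where the others held at most 7690 in granulosa and 5959 in theca. P4HB averaged 14121 ± 1521 in control and 14609 ± 1614 in prenatal T granulosa, and 10719.6 ± 1959 in control and 10114.5 ± 1557 in prenatal T theca. The control and prenatal T means of P4HB lay closer together than their SDs in both layers.

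The sensors and factors were less uniform, with 2 higher, 1 lower and 3 not passing. ERN1, the kinase and endonuclease that splices XBP1, rose by 0.47 ± 0.12 in granulosa (adjusted p = 0.00700), and ATF6, a membrane-bound factor freed by cleavage, by 0.22 ± 0.05 (adjusted p = 0.00342). DDIT3 fell by 0.35 ± 0.11 from theca to granulosa (adjusted p = 0.0184) and was lower there in 8 of 9 sheep. ATF6 averaged 1238 ± 145 in control and 1634.5 ± 536 in prenatal T granulosa, and 1059 ± 113 in control and 1442 ± 669 in prenatal T theca. Sheep 209 held 2590 and 2619 of ATF6, where the others held at most 1450 in granulosa and 1356 in theca. ERN1 averaged 1014 ± 187 in control and 958 ± 266 in prenatal T granulosa, and 723 ± 104 in control and 690.0 ± 292 in prenatal T theca. EIF2AK3, the kinase that slows translation, differed by 0.15 ± 0.06 (adjusted p = 0.0501), and averaged 896 ± 54.4 in control and 1036 ± 221 in prenatal T granulosa, and 795 ± 38.7 in control and 934 ± 166 in prenatal T theca. For EIF2AK3 sheep 209 held 1373 and 1211, where the others held at most 1047 and 926. XBP1 differed by -0.09 ± 0.06 (adjusted p = 0.218), and without sheep 209 averaged 2267 ± 435 in granulosa and 2471 ± 433 in theca (n = 8). ATF4 differed by 0.24 ± 0.10 (adjusted p = 0.0677), and by 0.30 ± 0.09 without sheep 209 (adjusted p = 0.0139, and 0.00662 to 0.398 over all alternatives).

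Of the 3 targets of ATF4 and DDIT3, 1 was called between the layers, CHAC1, an enzyme that breaks down glutathione. It stood at 379.6, 427, 353 and 1276 in control granulosa and 85.1, 440.4, 531, 614 and 371 in prenatal T granulosa. Theca values were 88.9, 64.5, 97.4, 69.3 and 124 in controls and 46.8, 74.7, 77.5, 102 and 88.7 in prenatal T animals. Outside sheep 209 the granulosa values began at 353, above the highest theca value of 124. The difference was 2.35 ± 0.20 (adjusted p = 3.49e-06), the largest rise among the 39 genes, and granulosa was higher in 9 of 9 sheep. Without sheep 209, whose markers are given above, the difference was 2.53. ASNS, which makes asparagine, and TRIB3, a pseudokinase that restrains ATF4, differed by -0.06 ± 0.18 and -0.11 ± 0.34 (adjusted p = 0.811 and 0.801). In theca TRIB3 stood at 10.6, 2.80, 10.0, 9.74 and 21.0 in controls and 83.5, 19.2, 8.37, 1.02 and 20.5 in prenatal T animals. Its counts were low, with 1 read in the theca library of sheep 276.

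The 3 genes of ER-associated degradation, which returns misfolded proteins to the cytosol, were all higher in granulosa. HERPUD1, a membrane protein of that machinery, stood at 3491, 3783, 9969.6 and 6974 in control granulosa and 3799.5, 4771, 4413, 6420.1 and 3848 in prenatal T granulosa. In theca it stood at 787, 1028, 957, 2568 and 1136 in controls and 4269, 1370.3, 909.5, 2081.5 and 1246 in prenatal T animals. The theca library of sheep 209 was the sole one to reach the granulosa range. The difference was 1.72 ± 0.22 (adjusted p = 6.02e-05), and 1.96 ± 0.10 without sheep 209, where the ratio of the layer means was 3.87. EDEM1, which recognises trimmed sugars on misfolded proteins, differed by 0.30 ± 0.07. SEL1L averaged 3691 ± 201 in control and 3473 ± 696 in prenatal T granulosa, and 2849 ± 254 in control and 3203 ± 1038 in prenatal T theca. In theca sheep 209 held 4864 of SEL1L, where the others held at most 3491. This scaffold of the HRD1 ligase differed by 0.23 ± 0.08 (adjusted p = 0.0235), a call that was lost when sheep 210, 230, 246 or 268 was left out (adjusted p up to 0.0604).

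**Figure D2:**
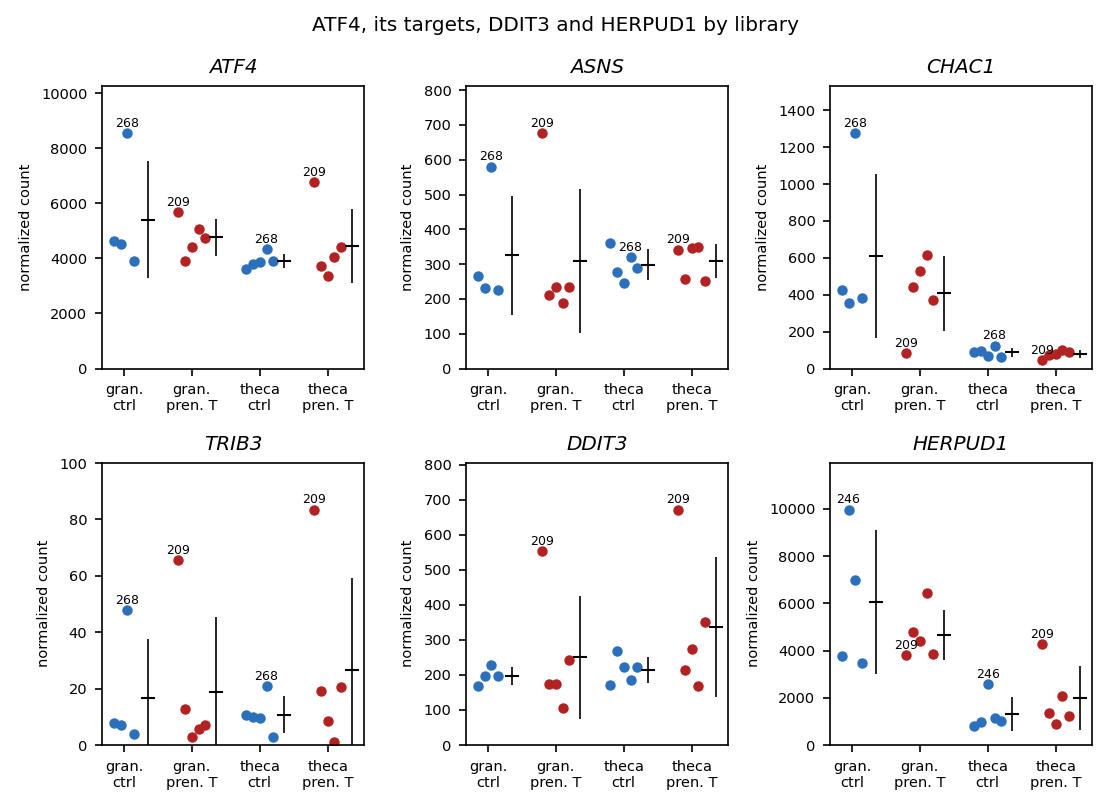
Normalized counts (vertical axes, from 0) of ATF4, ASNS, CHAC1, TRIB3, DDIT3 and HERPUD1 in the 19 libraries, by layer and treatment, with the mean and SD of each group as a dash and bar, which are cut at 0. Sheep 268 is highest among control granulosa libraries for ATF4, ASNS, CHAC1 and TRIB3, sheep 246 is highest among controls for HERPUD1 in both layers, and granulosa and theca separate for CHAC1 in all animals but sheep 209.

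In the cytosol 3 chaperones were higher in granulosa, 2 small heat shock proteins were lower, and 5 genes did not pass. HSPA8, the constitutive Hsp70, stood at 20852.5, 19206, 29748 and 28893 in control and 20783, 22611, 27565, 26688 and 21318 in prenatal T granulosa. In theca it stood at 11099, 12667, 9319, 19225 and 17848 in controls and 18231.5, 13941, 18841.5, 18397 and 14188 in prenatal T animals. The layers overlapped slightly, since the granulosa value of sheep 244 lay below the theca value of sheep 246, and every sheep was higher in granulosa than in its own theca. The difference was 0.63 ± 0.08 (adjusted p = 5.83e-05). HSPA4 averaged 6277 ± 1073 in control and 6022 ± 1076 in prenatal T granulosa, and 4227 ± 628 in control and 4779.7 ± 383 in prenatal T theca. HSPH1 averaged 1962 ± 288 in control and 2789.8 ± 969 in prenatal T granulosa, and 1459.8 ± 345 in control and 2373 ± 1411 in prenatal T theca. Sheep 209 held 4240 and 4813 of HSPH1, where the others held at most 3175 in granulosa and 2182 in theca. HSPA4 and HSPH1, exchange factors of Hsp70, differed between the layers by 0.40 ± 0.06 and 0.36 ± 0.09.

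HSPB8, a small heat shock protein that works with BAG3 in the clearance of misfolded proteins, was low in granulosa. It stood at 1.11, 13.2, 11.6 and 12.2 in control granulosa and 449, 2.15, 0, 1.15 and 3.55 in prenatal T granulosa. In theca it stood at 261, 176, 250.1, 169.9 and 229.7 in controls and 709.8, 238, 169.6, 149 and 336 in prenatal T animals. Sheep 209 was high in both layers, and in the other animals no granulosa library came near any theca library. In 5 granulosa libraries (sheep 224, 210, 230, 276 and 315) these were at most 3 reads. The fitted difference of -5.01 ± 0.59 (adjusted p = 3.15e-05) therefore depends on the pseudocount and was -3.52 ± 0.34 with a pseudocount of 10. Theca markers were present in granulosa libraries at the levels given above, and their part in the low HSPB8 values was not tested.

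HSPB1 (Hsp27), an abundant small heat shock protein, averaged 4736 ± 694 in granulosa and 6114 ± 952 in theca (SD, n = 9) and was lower in granulosa in 9 of 9 sheep (-0.37 ± 0.08, adjusted p = 0.00188). The inducible HSP90AA1 and the constitutive HSP90AB1 differed by 0.11 ± 0.08 and 0.21 ± 0.09 (adjusted p = 0.273 and 0.0579), the latter with an adjusted p of 0.0479 without sheep 209 and 0.00369 to 0.359 over all alternatives. HSP90AB1 averaged 63483 ± 3927 in control and 57649 ± 16941 in prenatal T granulosa, and 56477 ± 8231 in control and 47890.0 ± 14580.4 in prenatal T theca. The Hsp40 proteins DNAJB1 and DNAJA1 differed by -0.11 ± 0.09 and -0.05 ± 0.05. HSF1 itself ranged from 716 to 892 in granulosa and from 656 to 957 in theca and differed by 0.06 ± 0.06 (adjusted p = 0.448). Both mitochondrial chaperones rose in granulosa, in 9 of 9 sheep each, HSPA9 (mortalin) by 0.47 ± 0.06 and HSPD1 (Hsp60) by 0.45 ± 0.07 (adjusted p = 8.78e-05 and 0.000161). HSPD1 averaged 2023 ± 347 in control and 2215 ± 494 in prenatal T granulosa, and 1451 ± 228 in control and 1637 ± 309 in prenatal T theca. HSPA9 stood at 5884 ± 691 and 6771 ± 1395 in control and prenatal T granulosa, and its theca values follow below.

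These calls rest on pairing within animals: without the animal as a replicate block 17 of the 39 genes (43.6%) were called, 15 higher and 2 lower, HSPA5 not among them, where 36.5% of all genes were called. In control animals alone 25 (64.1%) were called, without DDIT3 and SDF2L1, against 46.1% of all genes. In prenatal T animals alone 20 (51.3%) were called, without ATF6, DNAJB11, ERN1, HSP90B1, HSPA5, HSPH1 and SEL1L, against 32.8% of all genes.

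No gene of the 39 passed the threshold between prenatal T and control animals in either layer, and the estimates of the ER chaperones all lay on the higher side in prenatal T animals. In granulosa limma called 0 of 39 genes, against 0% of all genes (0 of 16269, with 691 at an unadjusted p under 0.05, of which 0 were among the 39). edgeR and DESeq2 also called 0 of the 39, with 2 and 3 at an unadjusted p under 0.05, and DESeq2 gave an adjusted p for 36 of them. The estimates lay above 0 for 27 of the 39 genes, with a median of 0.19 against -0.014 over all genes. Without sheep 209, 26 lay above 0 and the median was 0.14.

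All 11 ER chaperones had estimates above 0 in granulosa, from 0.16 ± 0.14 for CANX to 0.57 ± 0.28 for MANF, where 48.5% of all genes lay above 0. None passed, and the 11 were measured in the same libraries, so they are not 11 independent observations. Their median was 0.47, and 0.26 without sheep 209. All 11 were above 0 under each of the alternatives as well, sheep left out one at a time and TMM scaling included. Sums of layer markers also differed between the treatments, sheep 209 left out. Summed theca markers were largely COL1A1, COL1A2 and COL3A1. Their median was 75252 in control and 33408 in prenatal T granulosa, all 13 above 0 in both groups. Summed granulosa markers had medians of 99868 and 127183, all 13 above 0. Members of a list did not all follow its sum. COL1A1 ranged from 12589 to 30780 in control and 7248 to 13710 in prenatal T granulosa, but DCN from 1026 to 2815 and 405 to 3163. FOXL2 of the granulosa list ranged from 3804 to 9577 and 5391 to 8151. The part of these markers in the chaperone estimates was not tested.

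MANF stood at 1307, 1241, 765 and 1875 in control and 2327, 1178, 1712, 2309 and 1931 in prenatal T granulosa. Sheep 246 was the lowest control, and the prenatal T animal 210 lay below 3 of the 4 controls. The estimate was 0.57 ± 0.28 (adjusted p = 0.879), and 0.49 ± 0.28 without sheep 209. HSPA5, whose granulosa values are listed above, averaged 11218 ± 2717 (SD, n = 4) in controls and 15908 ± 4133 (n = 5) in prenatal T animals, with 14411 ± 2798 (n = 4) when sheep 209 was left out. The groups overlapped, with control sheep 268 between the prenatal T sheep 315 and 230, and the estimate was 0.50 ± 0.24 (adjusted p = 0.879). CALR stood at 6874, 5863, 5710.0 and 8493 in control and 14489, 6951, 7374, 9480.1 and 9369 in prenatal T granulosa (0.47 ± 0.23, adjusted p = 0.879).

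HSP90AA1 had the smallest unadjusted p of the 39 genes in granulosa, with an adjusted p of 0.879. It stood at 28802, 26752, 27017 and 32036 in controls and 48065, 29355, 35061, 40915 and 42909 in prenatal T animals. Sheep 209, 315, 276 and 230 lay above all controls, and sheep 210 lay within them. The estimate was 0.44 ± 0.20, and 0.36 ± 0.17 without sheep 209. PDIA3 averaged 9658 ± 890.0 in controls and 12492 ± 2395 in prenatal T animals (0.35 ± 0.17, adjusted p = 0.879). DNAJA1, an Hsp40 partner of Hsp70, averaged 769 ± 83.6 and 1019 ± 257 (0.37 ± 0.20, adjusted p = 0.879).

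In no case did the prenatal T granulosa libraries all lie on 1 side of the controls: 0 of 39 genes, against 2.35% of all genes, and 0 of 39 against 3.82% without sheep 209. The ATF4 branch had estimates in granulosa of -0.12 ± 0.23 for ATF4, -0.61 ± 0.61 for CHAC1, -0.14 ± 0.43 for ASNS and 0.11 ± 0.42 for DDIT3, each with an adjusted p of at least 0.882. Without sheep 209, 2 and 5 of the 39 had an unadjusted p under 0.05 with edgeR and DESeq2. With limma HSPB8 was the sole one, at -1.83 ± 0.78 (adjusted p = 0.725, and 0.725 to 0.998 over all alternatives). Its estimate with all libraries was -0.32 ± 1.66, and 0.37 ± 1.08 with a pseudocount of 10. By edgeR and DESeq2 it was 3.21 and 3.28 with all libraries, and -2.38 and -2.44 without sheep 209. The summed theca markers, largely collagens, stood at 35719 to 86104 in control and 21668 to 43173 in prenatal T granulosa without sheep 209. All 13 were above 0 in both groups, not all followed the sum, and their part was not tested.

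**Figure D3:**
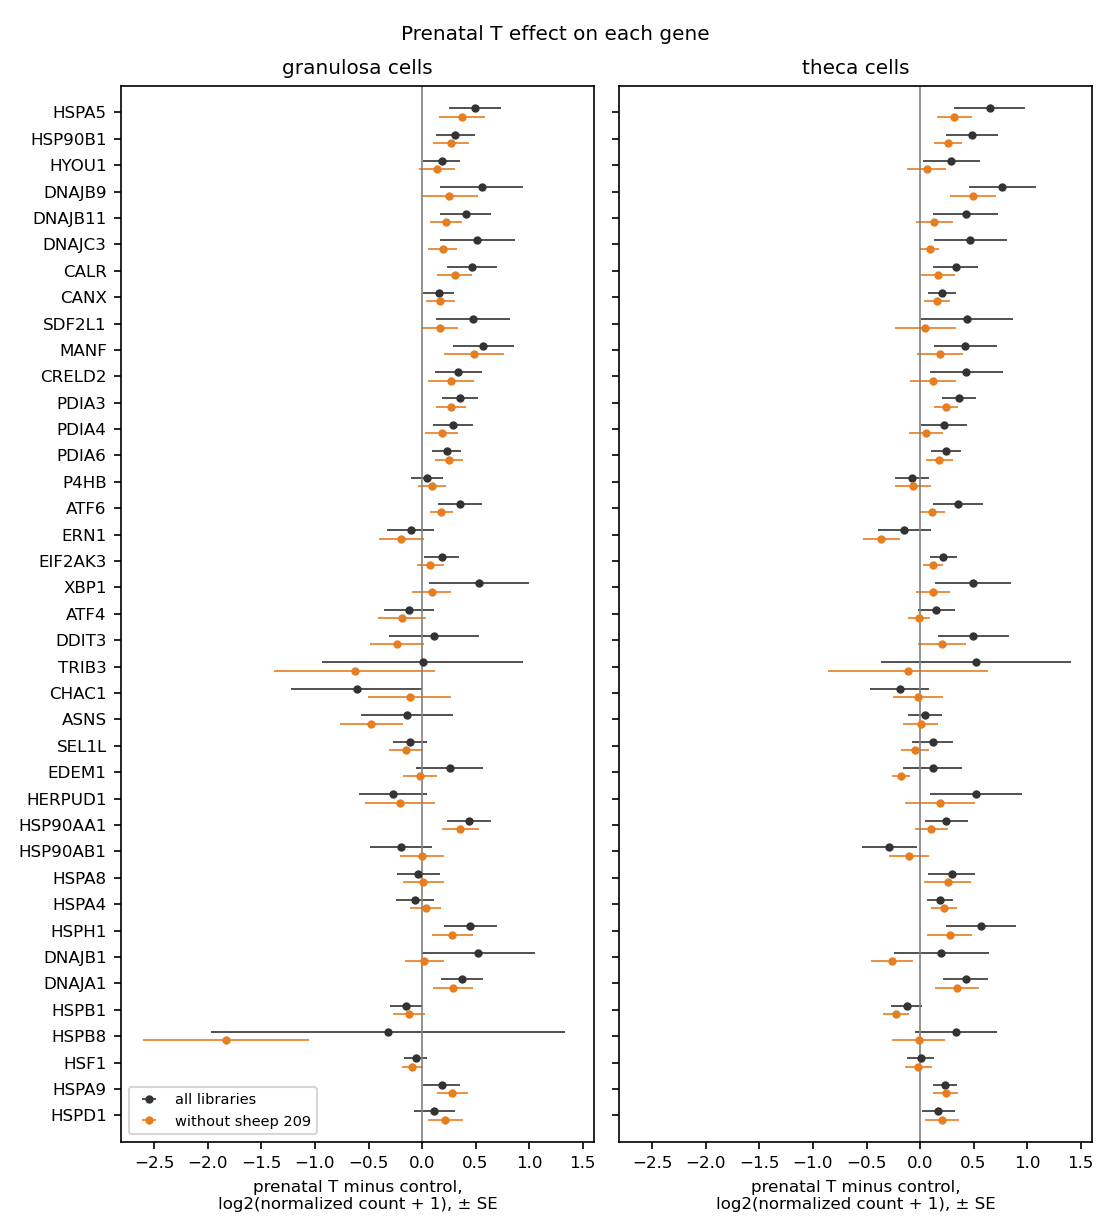
Prenatal T minus control, in log2(normalized count + 1) with standard errors, for the 39 genes in granulosa (left) and theca cells (right), with all libraries in black and without sheep 209 in orange. The 11 ER chaperones at the top lie to the right of 0 in both panels, 0 of the 39 genes passed the threshold, and leaving out sheep 209 moves most of the larger values towards 0.

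In theca limma called 0 of 39 genes, against 0% of all genes (0 of 16269, with 1261 at an unadjusted p under 0.05). At an unadjusted p under 0.05 stood 2 of the 39, DNAJB9 and PDIA3, and 4 and 5 with edgeR and DESeq2, which also called 0 of the 39. Estimates lay above 0 for 34 of 39 genes, with a median of 0.29 against 0.003 over all genes. Without sheep 209, 27 lay above 0 and the median was 0.12.

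DNAJB9 stood at 241, 296, 197, 448 and 252 in control theca and 1007, 433, 340.2, 357 and 433 in prenatal T theca. Sheep 209 was the highest, and the remaining 4 prenatal T animals lay above all controls but sheep 246. The estimate was 0.77 ± 0.32 (adjusted p = 0.641 by limma), and 0.49 ± 0.22 without sheep 209 (adjusted p = 0.417, and 0.353 to 0.835 over all alternatives). PDIA3, whose theca values are listed above, averaged 6872 ± 779 in controls (SD, n = 5) and 8970.2 ± 2027 in prenatal T animals (n = 5). Of the prenatal T animals, 4 of 5 lay above every control, and sheep 210 lay below sheep 268. The estimate was 0.37 ± 0.16 (adjusted p = 0.641), and 0.24 ± 0.11 without sheep 209.

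HSPA9, the mitochondrial Hsp70, stood at 4050.1, 4707, 3886, 3646 and 4473 in control and 4806, 4412, 5179, 5655 and 4395 in prenatal T theca. The groups overlapped through controls 224 and 268. The estimate was 0.24 ± 0.11 (adjusted p = 0.644), and 0.24 ± 0.11 without sheep 209. HSPA5 averaged 7297 ± 1508 in controls and 12907 ± 8767 in prenatal T theca, and 9024 ± 1406 (n = 4) without sheep 209, so that its estimate went from 0.65 ± 0.33 to 0.32 ± 0.16 (adjusted p = 0.654 and 0.463, and 0.392 to 0.835 over all alternatives). HSP90B1 went from 0.49 ± 0.24 to 0.26 ± 0.13, and DNAJA1 from 0.43 ± 0.21 to 0.35 ± 0.21.

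All 11 ER chaperones were again above 0, where 50.4% of all genes were, with a median of 0.43, and 0.16 without sheep 209. Summed theca markers, largely collagens, had medians of 849653 in control and 655158 in prenatal T theca, sheep 209 left out. Those of granulosa markers were 21872 and 27514, with all 13 of each list above 0. Members of the theca list differed in direction. COL1A1 ranged from 276534 to 427685 in control and 250557 to 315714 in prenatal T theca, but DCN from 12033 to 17653 and 13665 to 23294. The part of these markers was not tested. The layers come from the same animals, so the theca count of chaperones does not repeat the granulosa count independently. In 0 of 39 genes were control and prenatal T theca separated, against 2.21% of all genes. Without sheep 209 the groups were separated in 1 of 39, against 4.47% of all genes. That gene, EDEM1, stood at 885, 855, 931, 826 and 852 in controls and 2159, 743, 792, 758 and 773 in prenatal T theca. Every prenatal T animal except sheep 209 lay below every control, with an estimate of -0.18 ± 0.08 (adjusted p = 0.429, and 0.417 to 0.966 over all alternatives); with sheep 209 it was 0.12 ± 0.27.

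The test of whether prenatal T effects differ between the layers called none of the 39 genes. The difference of the effects, granulosa minus theca, was called in 0 of 39 genes and in 0% of all genes by limma (0 of 16269, with 758 at an unadjusted p under 0.05, 0 of them among the 39). edgeR and DESeq2 also called 0 of the 39. The median was -0.044, with 15 of 39 above 0, and 0.051 with 25 above 0 without sheep 209. Without sheep 244 it was 0.031, with 21 above 0. The 6 genes of smallest p were DNAJB1 (0.30 ± 0.16), HSPA8 (-0.26 ± 0.15), HERPUD1 (-0.65 ± 0.42), HSPA4 (-0.18 ± 0.12), DDIT3 (-0.31 ± 0.21) and HSP90AA1 (0.21 ± 0.16), each at an adjusted p of 0.960. The difference of HERPUD1 came with estimates of -0.27 ± 0.32 in granulosa and 0.52 ± 0.43 in theca, and was -0.25 ± 0.20 without sheep 209. For HSPB8 it was -0.73 ± 1.23, and -1.89 ± 0.60 without sheep 209 (adjusted p = 0.540, and 0.351 to 1 over all alternatives), at the low granulosa counts given above.

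Spread between animals was described by the coefficient of variation within a group. Over the 39 genes it had a median of 17.1% in control granulosa and 17.7% in control theca. In prenatal T animals it was 25.2% and 32.4%, and 16.6% and 15.6% without sheep 209. Among the 8 other sheep with both layers, the same sheep was highest in both layers for 18 of the 39 genes (46.2%), as for 37.6% of all genes. It was sheep 276 for 8 genes, 315 for 5, 246 and 268 for 2 each and 210 for 1.

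**Figure D4:**
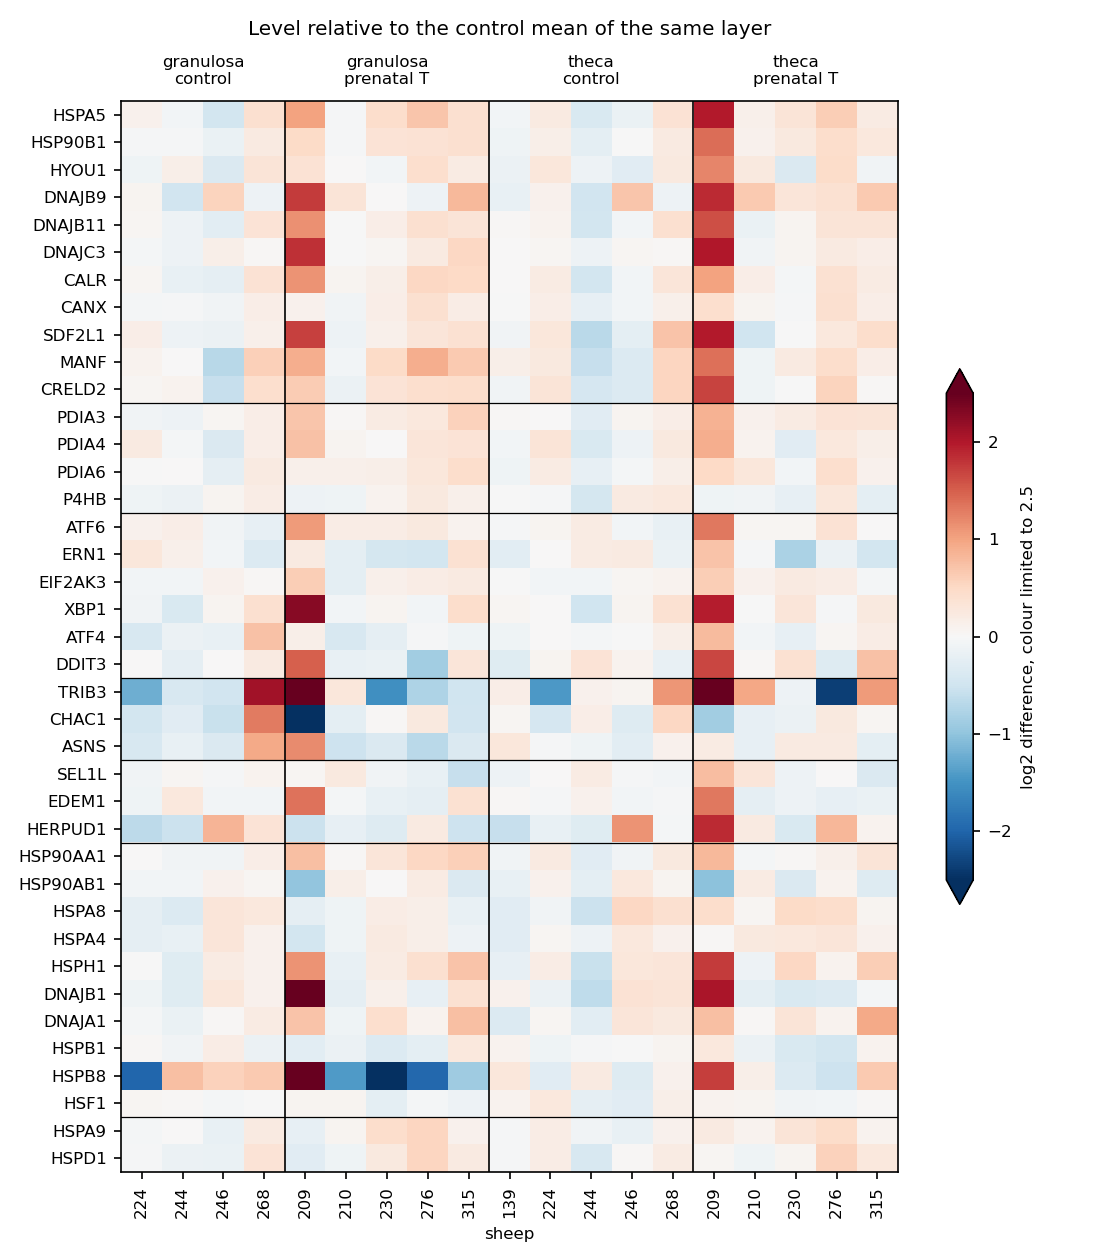
Log2 difference of each of the 39 genes (rows) in each of the 19 libraries (columns, by sheep within layer and treatment) from the control mean of the same layer, with the colour scale ended at 2.5 in both directions. The columns of sheep 209 are the darkest in both layers, and in control granulosa sheep 268 stands out for TRIB3, CHAC1, ASNS and ATF4.

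The control granulosa library of sheep 268 was high for the ATF4 branch. ATF4 stood at 3893, 4636, 4536 and 8558 in control granulosa and 5695, 3923, 4407, 5067 and 4751 in prenatal T granulosa. Sheep 268 was above all 18 other libraries, those of sheep 209 included. In theca ATF4 stood at 3616, 3901, 3790.0, 3887 and 4342 in controls and 6764, 3732, 3364, 4049 and 4411 in prenatal T animals, with sheep 268 the highest control by a small margin.

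ASNS stood at 226, 265, 232 and 581 in control and 677, 210.0, 234, 188 and 234 in prenatal T granulosa, with sheep 268 and 209 apart from the rest. In theca its values were 362, 289.6, 276, 247 and 319.6 in controls and 342, 258, 346, 348 and 251 in prenatal T animals, and sheep 268 lay within the others. TRIB3 stood at 3.89, 7.72, 7.23 and 47.8 in control and 65.6, 12.9, 2.94, 5.73 and 7.10 in prenatal T granulosa, again with sheep 268 and 209 apart. CHAC1, listed above, was 1276 in sheep 268 granulosa, above all other libraries, and 124 in its theca, the highest theca value. DDIT3, which lies in the same branch, stood at 197, 168, 197 and 229 in control and 553, 173, 174, 107 and 243 in prenatal T granulosa. Sheep 268 was the highest control there too, by a small margin, and sheep 209 was the highest of all. HSPA5 was also highest among controls in sheep 268, at 14533.5 in granulosa and 9278 in theca.

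Sheep 246 was the highest of all animals for HERPUD1 in granulosa, at 9969.6, and the highest but sheep 209 in theca, at 2568. HSPA5 in this animal was the lowest of the control granulosa libraries (8021), as were MANF (765) and CRELD2 (823). DNAJB9, in contrast, was highest among control granulosa libraries in sheep 246, at 463. Sheep 315 held the highest DNAJA1 in both layers, 1288 and 1467, above sheep 209 as well. Sheep 276, apart from 209, was highest for HSPA5 in both layers, at 17623 and 11002, and for HSPD1, at 2904 and 2131.

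Sheep 209 was above all other libraries of the layer, in both layers, for 21 of the 39 genes (53.8%), where this held for 23.0% of all genes, and below them in both for 2 (5.13%), where 20.7% of all genes were. XBP1 stood at 2033, 1651, 2272 and 2872 in control and 10522, 2056, 2269, 2059 and 2927 in prenatal T granulosa. In theca it stood at 2407, 2342, 1663, 2464 and 3042 in controls and 9144, 2315, 2887, 2290.4 and 2764 in prenatal T animals. Sheep 209 was 4.86 and 3.80 times the median of the others, which overlapped between treatments and layers.

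The 21 high genes were 9 of the 11 ER chaperones, 2 of the 4 disulfide isomerases, 4 of the 6 sensors and factors, 4 of the 10 cytosolic genes, and 1 of 3 each among the ATF4 targets and the genes of ER-associated degradation. Neither mitochondrial chaperone was among them: HSPA9 and HSPD1 lay below the others in granulosa and within them in theca. The ratio to the median of the other animals was 3.43 in granulosa and 3.86 in theca for DNAJC3, and 3.02 and 3.99 for SDF2L1. For HSPA5 it was 1.67 and 3.45. Among the sensors and factors it was 1.91 and 2.41 for ATF6 and 2.98 and 3.02 for DDIT3. In the cytosol DNAJB1, an Hsp40 that rises sharply on heat shock, stood at 3163 and 2744 in sheep 209, where the others ranged from 441 to 709 in granulosa and from 429 to 856 in theca. HSPH1 had ratios of 1.95 and 2.98.

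The genes below the others in both layers were CHAC1 and HSP90AB1. HSP90AB1 stood at 32002.5 in the granulosa library of sheep 209, where the others held 49591 to 73074, and at 27519.9 in theca, where the others held 43523 to 66845. The inducible HSP90AA1 lay above the others, at 48065 and 49438.5. Within the ATF4 branch the animal was thus high for DDIT3 and TRIB3 in both layers, for ATF4 in theca and for ASNS in granulosa, and low for CHAC1 in both.

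Markers of other cells moved with these values in sheep 209. Beside the epithelial sums above, 4 plasma cell markers summed to 2551 in its granulosa and 8386 in its theca library, against at most 215 in any other library. The 6 immune cell markers summed to 12184.5 and 14010.5, against at most 1906. All members of these 3 lists were above 0 in sheep 209, but not all stood out. TNFRSF17 was at 1.15 in its granulosa library. CD3E was at 79.7 in its theca library, where the other theca libraries held 41.0 to 123. Their part in the levels of the 39 genes was not tested.

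**Figure D5:**
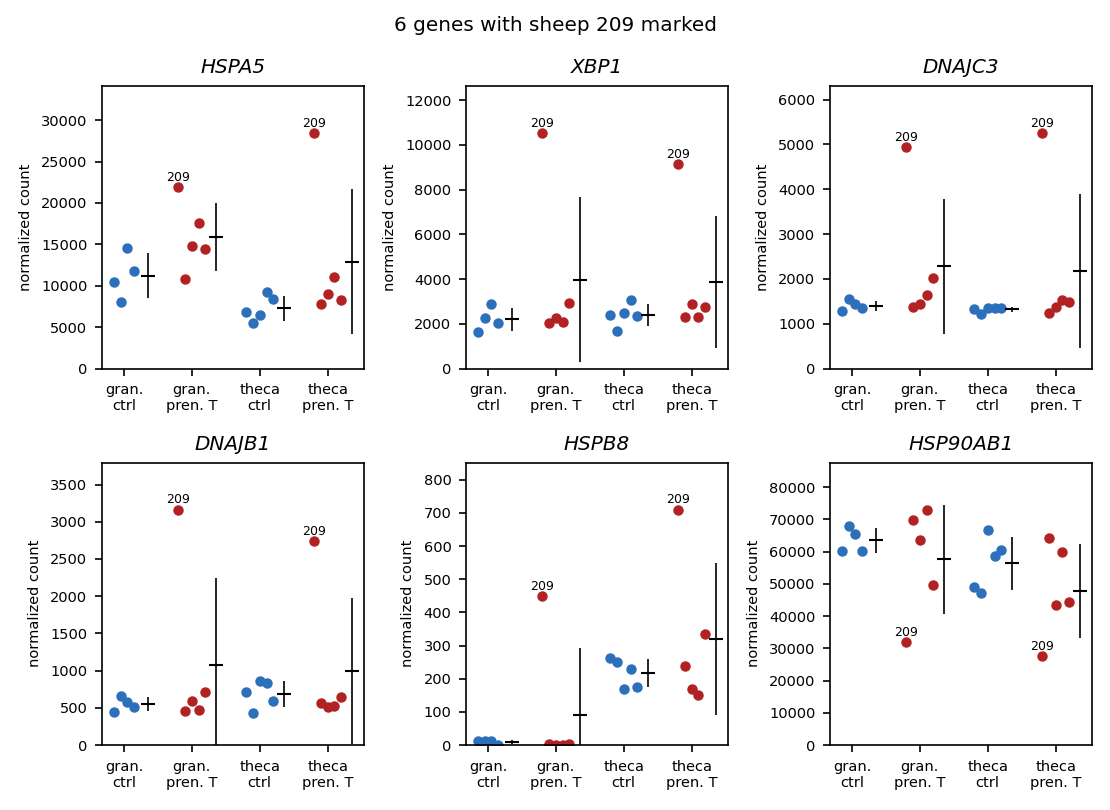
Normalized counts (vertical axes, from 0) of HSPA5, XBP1, DNAJC3, DNAJB1, HSPB8 and HSP90AB1 in the 19 libraries, by layer and treatment, with the mean and SD of each group as a dash and bar, which are cut at 0. Sheep 209, marked by its number, is the highest prenatal T library for the first 5 genes and the lowest for HSP90AB1, and the other libraries of a layer overlap between treatments.

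Of 142 other genes of these pathways, 137 were in the table and 135 were tested. Between the layers 62 (45.9%) were called higher and 28 (20.7%) lower in granulosa, where 28.6% and 28.0% of all genes were, with a median difference of 0.17. All 10 called genes of the 12 for mitochondrial quality control were higher, while the 25 other genes of ER folding and protein entry split into 6 higher and 6 lower, with a median of 0.0036. Between treatments 0 of the 135 were called by limma in granulosa (4 at an unadjusted p under 0.05) and 0 in theca (9), and the difference of effects was called in 0 (6).

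Named here are the 4 of smallest p in each direction. HSPA4L, an Hsp110 chaperone, stood at 794 ± 309.7 against 367 ± 125 (1.09 ± 0.08, adjusted p = 1.36e-06). EIF2AK1, a kinase of the same translation factor as EIF2AK3, stood at 1469.7 ± 138 against 1038 ± 79.6 (0.50 ± 0.05, adjusted p = 1.12e-05). UGGT1, which tags misfolded glycoproteins for another round with CALR and CANX, stood at 3312 ± 374 against 2339.9 ± 443 (0.51 ± 0.05, adjusted p = 1.21e-05). SSR1, a subunit of the complex at the ER entry channel, stood at 6169 ± 667 against 4378 ± 433 (0.49 ± 0.06, adjusted p = 2.61e-05). These are levels in granulosa against theca (SD, n = 9 each), and the differences were of the size seen for PDIA3 and CANX, apart from that of HSPA4L.

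Of the 4 genes of smallest p among those lower in granulosa, 2 were small heat shock proteins, as were HSPB8 and HSPB1 among the 39 genes. HSPB6, known from muscle, stood at 125 ± 65.5 against 2265 ± 1257 (-4.24 ± 0.18, adjusted p = 5.75e-08). HSPB7 stood at 56.8 ± 34.5 against 630.1 ± 271 (-3.58 ± 0.25, adjusted p = 7.15e-07). HSPA12A, a distant Hsp70 relative, stood at 34.6 ± 14.4 against 482 ± 97.9 (-3.83 ± 0.18, adjusted p = 8.47e-08), and RCN1, a calcium-binding protein of the ER, at 3299 ± 465 against 7025 ± 1196 (-1.08 ± 0.06, adjusted p = 1.69e-07). Smooth muscle and pericyte markers lay apart between the layers too. Without sheep 209 their sums were 17469 to 41845 in granulosa and 100379 to 211239 in theca, all 6 above 0 in each group. In sheep 209 the sums were 10896 in granulosa, below the others, and 265181 in theca. Members of the list differed in that granulosa library. MYH11 was at 4637 against at least 11242 in the other granulosa libraries. DES at 1474 and RGS5 at 1113 were the highest of the granulosa libraries, as was HSPB8 at 449. ACTA2, TAGLN and CNN1 lay within the others. The part of these markers in the small heat shock proteins was not tested.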

How the data were processed

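The 19 libraries of 20 planned come from granulosa and theca cells, captured by laser from pooled follicles of each sheep; granulosa cells of control sheep 139 were not analysed here. Values are a signal deposited by the authors, namely gene read counts scaled by 1 size factor for each library. Per the submitters' processing notes, the tools were STAR 2.6.0c, featureCounts in Subread 1.6.1, DESeq2, FastQC 0.11.5 and MultiQC 0.9. A genome build was not given in the sources used here. In every library 100% of the values were whole multiples of 1 step (tolerance 1e-06), which gave back 12.7 to 26.03 M whole reads per library. No column lacked a sample (0). Depth sets counting error only, and the floor of 3 reads was worth 1.67 to 3.80 normalized counts.

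Genes that reached 10 or more in 5 or more libraries were tested with limma 3.58.1 (R 4.3.3), two-sided, on log2(value + 1). This scale understates the change of low genes. Prenatal T was compared with control within each layer, and granulosa with theca, and the difference of prenatal T effects, with the sheep as a replicate block. p-values were adjusted by Benjamini-Hochberg over all 16269 genes, with a threshold of 0.05. Pairing comes from the animals' numbers: deviations of the layers of a sheep from their group means correlated across genes at r = 0.42 to 0.80 and matched best with their own sheep in 9 of 9. No 2 libraries of a group repeated 1 sample (over 36 pairs, chi-square per degree of freedom was 25.9 or more).

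Alternatives were a pseudocount of 10, no filter, TMM scaling, each sheep left out, the fits without or with the block, 1 treatment only for the layers, and edgeR 4.0.16 (quasi-likelihood) or DESeq2 1.42.0 on the recovered reads. edgeR and DESeq2 without sheep 209 were chosen after seeing the data. Every gene found is named. Changes are results for the 6 genes of smallest unadjusted p per comparison and descriptions for the others, and other pathway genes are named if called, up to 4 per direction by smallest p. The genes and lists were chosen with earlier results of these data known.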

Additional observations from a re-analysis of the deposited data

Results flagged for a closer look

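Of 156 groups of 4 or 5 libraries, 1 for each of the 39 genes in each layer and treatment, 35 held a library whose gap to the nearest other took up more of the group's range than Dixon's 95% limit allows. Chance alone gives about 1 in 20 groups, or 7.8 of 156, and genes of a library are not independent. Of the 35, 25 were prenatal T sheep 209, 10 in granulosa and 15 in theca, each time as the highest.

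Both of its libraries stood apart in 8 genes. XBP1 stood at 10522 in granulosa, where the other 4 prenatal T sheep held 2056 to 2927, and at 9144 in theca, where they held 2290.4 to 2887. In the same order of granulosa and theca, DNAJC3 stood at 4941 and 5255, DNAJB11 at 1803 and 1959.9, and SDF2L1 at 838 and 784. ATF6 stood at 2590.2 and 2619, TRIB3 at 65.6 and 83.5, EDEM1 at 2609 and 2159, and DNAJB1 at 3163 and 2744. In theca alone it stood apart for HSPA5 at 28438.5, HSP90B1 at 45654, DNAJB9 at 1007, MANF at 2418, CRELD2 at 2073, PDIA3 at 12476 and HSPH1 at 4813. In granulosa alone it did so for ASNS at 677 and HSPB8 at 449.

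Control sheep 268 stood apart in granulosa as the highest of 4 for ATF4 (8558 against 3893 to 4636), CHAC1 (1276 against 353 to 427), ASNS (581 against 226 to 265) and TRIB3 (47.8 against 3.89 to 7.72). The other 6 were single genes. Sheep 244 was the highest control for EDEM1 in granulosa (1212 against 936 to 968) and the lowest for DNAJC3 in theca (1215 against 1325 to 1361). Sheep 246 was the highest control for HERPUD1 in theca (2568 against 787 to 1136), and sheep 224 the lowest for HSPB8 in granulosa (1.11, or 2 reads, against 11.6 to 13.2). Among prenatal T sheep, 276 was the highest for P4HB in theca (12803 against 8939 to 9929) and 315 for HSPB1 in granulosa (5943 against 3925 to 4465).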

How the results depend on the processing

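Each value of the 6 genes of smallest p in a comparison kept its direction and its side of the threshold under the alternatives run (426 values). A further 201 values of counts and medians stayed within 1.5 times or 1 SD, but the median of the 39 genes for the difference of effects turned from -0.044 to 0.051 without sheep 209 (0.029 by edgeR and 0.056 by DESeq2) and 0.031 without sheep 244. Counts over all genes that moved were these, and the cause was not tested. For prenatal T in granulosa, 0 by limma became 2 without the filter, 20 with DESeq2 (31 without sheep 209) and 1 with all libraries in 1 fit and the animal as a replicate block. In theca, 0 became 2 without the filter and 7 with DESeq2 (57 without sheep 209), and for the difference of effects 18 with DESeq2 (32 without sheep 209). In each of these fits 0 of the 39 genes were called. Between the layers 9210 genes became 5936 without the replicate block and 5338 in prenatal T animals alone, a fit with fewer samples, and 27 of the 39 genes became 17 without the block. With each sheep left out in turn 26 to 30 of the 39 were called between the layers and 0 in the prenatal T comparisons. Between the layers 10 genes lost their call without the block (ATF6, CALR, DDIT3, DNAJB11, EDEM1, HSPA5, HSPH1, MANF, SDF2L1 and SEL1L). In control animals alone DDIT3 and SDF2L1 lost it, and in prenatal T animals alone ATF6, DNAJB11, ERN1, HSP90B1, HSPA5, HSPH1 and SEL1L. Under the other alternatives SEL1L lost its call and ATF4, DNAJC3, EIF2AK3 and HSP90AB1 gained one. Leaving out sheep 139, which has 1 layer, does not alter the paired fits and was not run there. Low counts limit HSPB8 in granulosa and TRIB3 throughout.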
